A study of Mus musculus with 12 samples.

Results

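The enzymes that write, copy and remove DNA methylation were followed through 4 mouse lines of induced pluripotent stem cells (iPS cells), made by returning differentiated cells to a state like that of embryonic stem cells. The 9 genes were chosen by name: Dnmt1, Dnmt3a, Dnmt3b, Dnmt3l, Uhrf1, Tet1, Tet2, Tet3 and Tdg. On the array, 8 of the 9 had probe sets of their own, 11 in all, out of 28939 probe sets tested and 19938 genes represented. Each gene was read through the probe set with the highest mean over the 12 arrays. The 4 probe sets listed for Tdg are all listed for Tdg-ps2 as well, so they name neither gene and are described apart. All 8 probe sets used lay above the 40th percentile of probe set means. The main tests applied no filter on dim probe sets. That percentile served as a filter in an alternative fit and in the comparisons of profiles and of X-linked genes.

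All 4 lines were derived from C57BL/6J mouse embryonic fibroblasts with 3 factors, which the labels do not name, and were grown in embryonic stem cell medium. LiPS-45 and LiPS-57 are labelled as having tetraploid complementation competence. The labels give LiPS-47 and LiPS-50 as lacking it. In that assay the cells are combined with an embryo made tetraploid, so that the fetus derives from the cells under test. From each line 3 cultures, which the labels call biological repeats, were hybridised to an Affymetrix array each (12 arrays), and the study asked how expression differs with competence. A line is a single derivation, so competence rests on 2 lines against 2, and nothing in the labels gives the passage or the sex of a line. The number of arrays limits the precision.

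Dnmt3a and Dnmt3b place methyl groups on unmethylated CpG sites, and Dnmt3l, which has no catalytic activity of its own, binds them and raises their activity. Dnmt1 copies the pattern after replication, guided by Uhrf1, which recognises hemimethylated sites. The Tet dioxygenases oxidise methylcytosine, and Tdg, a DNA glycosylase, cuts out the most oxidised forms for base excision repair. Mouse pluripotent cells express the de novo enzymes, Dnmt3l, Tet1 and Tet2, and the balance among these enzymes shifts between the naive state and the primed state of the epiblast.

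The sequences upstream of the 3 genes whose levels differed between lines are shown because the genes moved in 2 directions. Each is the 200 bases from 250 to 51 before an annotated start, from RefSeq on GRCm38.p6, plus strand, 5′ to 3′, with each CpG in capitals. The windows are chr12:3806730-3806929 and chr12:3891494-3891693 for Dnmt3a, chr2:153649199-153649398 for Dnmt3b and chr10:78042037-78042236 for Dnmt3l.
Dnmt3a, first start: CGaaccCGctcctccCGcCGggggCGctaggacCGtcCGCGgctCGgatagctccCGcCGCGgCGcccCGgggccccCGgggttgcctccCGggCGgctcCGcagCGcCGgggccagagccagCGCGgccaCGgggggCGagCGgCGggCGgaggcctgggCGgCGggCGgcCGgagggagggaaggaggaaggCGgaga
Dnmt3a, downstream start: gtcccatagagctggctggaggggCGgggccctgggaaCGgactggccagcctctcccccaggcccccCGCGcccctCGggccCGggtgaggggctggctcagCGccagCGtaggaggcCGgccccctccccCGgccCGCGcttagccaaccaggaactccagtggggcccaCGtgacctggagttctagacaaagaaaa
Dnmt3b: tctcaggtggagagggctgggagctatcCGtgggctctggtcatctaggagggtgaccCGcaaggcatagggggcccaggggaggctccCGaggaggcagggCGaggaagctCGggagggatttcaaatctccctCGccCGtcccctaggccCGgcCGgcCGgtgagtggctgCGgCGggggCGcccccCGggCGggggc
Dnmt3l: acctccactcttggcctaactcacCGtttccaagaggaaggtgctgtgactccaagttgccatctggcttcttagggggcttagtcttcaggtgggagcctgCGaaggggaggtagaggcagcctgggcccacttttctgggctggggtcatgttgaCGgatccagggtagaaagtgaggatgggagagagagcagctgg

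The first Dnmt3a window held 32 CpG and the one 84764 bases downstream 13. The Dnmt3b window held 15 CpG and the Dnmt3l window 3, against a median of 4 and quartiles of 2 and 11 over 32841 such windows of all genes. The Dnmt3a and Dnmt3b windows therefore lay above the upper quartile and the Dnmt3l window below the median. All 9 genes matched the RefSeq table, with 16 windows. The GC box GGGCGG, searched on both strands, was in 9 of the 16 windows and in 24.6% of all windows. It was in both Dnmt3a windows shown and in the Dnmt3b window. Neither strand of the Dnmt3l window shown held it, whereas another Dnmt3l window, at chr10:78049592-78049791, held it on the minus strand. CCAAT was in 3 of the 16 (28.4% of all windows), the E-box CACGTG in 1, the downstream Dnmt3a window (4.34%), and TTTGGCGC in 0 (0.350%). None of these motifs contains another, and a match is a description of the window only. The probe sets do not tell which start a transcript came from.

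The de novo enzymes Dnmt3b and Dnmt3a were lower in LiPS-50 than in each of the other 3 lines, Dnmt3b by 1.53-fold to 1.62-fold and Dnmt3a by 1.28-fold to 1.35-fold. Their cofactor Dnmt3l went the other way, being higher in LiPS-50 than in LiPS-57 and LiPS-47. Dnmt1, Uhrf1, Tet1, Tet2 and Tet3 did not pass the test in any pair of lines. No gene of the group passed the test between competent and other lines. All values below are log2(value + 1) of the deposited intensities, and tests are limma's with Benjamini-Hochberg adjustment over all probe sets tested, at a threshold of 0.05. Between 2 lines the p-values reflect only how much cultures within a line vary. The competence test allows for the spread between lines through a correlation (0.183) shared by all probe sets. For a gene that differs mainly between lines, its interval can be too narrow.

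**Figure D1:**
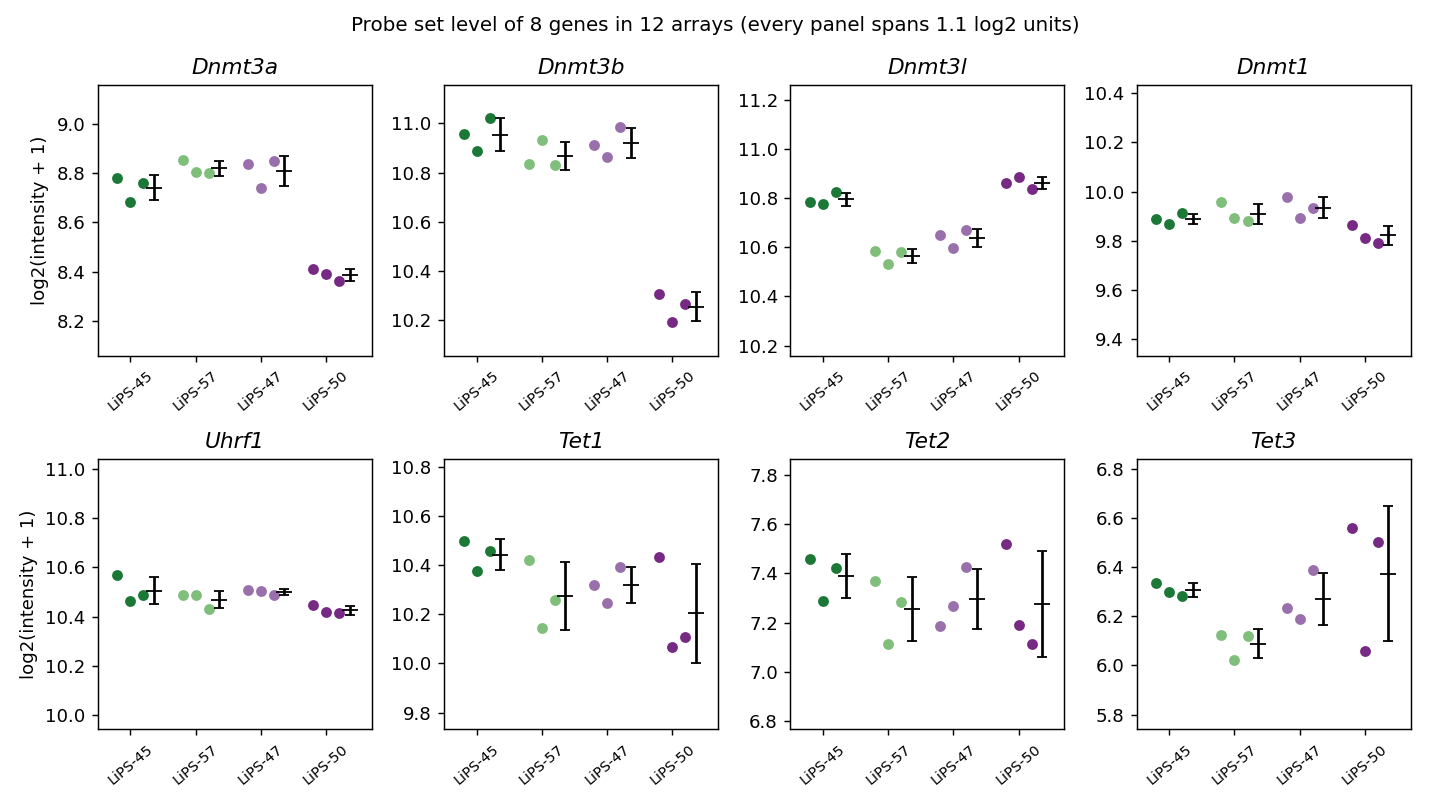
Level of each of the 8 genes, as log2(intensity + 1), in the 3 cultures of every line, with a point per array and a bar at the line mean ± SD; every panel spans the same log2 range. The LiPS-50 points of Dnmt3a (8.36 to 8.41) and Dnmt3b (10.19 to 10.31) lie below the points of every other line, whereas the LiPS-50 points of each Tet gene overlap those of every other line.

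Dnmt3b, the de novo enzyme abundant in the early epiblast, read 10.96, 10.89 and 11.02 in the LiPS-45 cultures and 10.84, 10.93 and 10.83 in those of LiPS-57. It read 10.91, 10.87 and 10.99 in LiPS-47 and 10.31, 10.19 and 10.27 in LiPS-50. The arrays of LiPS-50 were all lower than the 9 others, and those 9 overlapped. The difference from LiPS-50 was 0.70 ± 0.0629 (SE, n = 3 cultures a line) for LiPS-45, with a limma adjusted p of 1.64e-05. It was 0.61 for LiPS-57 (limma adjusted p = 6.19e-05) and 0.67 for LiPS-47 (limma adjusted p = 2.59e-05). In a bulk sample such a difference cannot be told apart from a smaller share of cells that express the gene.

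Dnmt3a, the de novo enzyme that is also widely expressed in differentiated tissue, read 8.78, 8.68 and 8.76 in LiPS-45 and 8.86, 8.81 and 8.80 in LiPS-57. It read 8.84, 8.74 and 8.85 in LiPS-47 and 8.41, 8.39 and 8.36 in LiPS-50. Again the LiPS-50 arrays were the lowest 3 of the 12, and again LiPS-47 overlapped the competent lines. The difference from LiPS-50 was 0.35 ± 0.0565 for LiPS-45 (limma adjusted p = 0.00122), 0.43 for LiPS-57 (limma adjusted p = 3.32e-04) and 0.42 for LiPS-47 (limma adjusted p = 3.53e-04). Of the 8 genes, Dnmt3a and Dnmt3b were the 2 called higher than in LiPS-50, in each of the 3 comparisons.

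Dnmt3l read 10.78, 10.77 and 10.83 in LiPS-45, 10.58, 10.53 and 10.58 in LiPS-57, 10.65, 10.60 and 10.67 in LiPS-47, and 10.86, 10.89 and 10.84 in LiPS-50. The arrays of the 4 lines did not overlap in any pair, in the order LiPS-50, LiPS-45, LiPS-47 and LiPS-57 from highest to lowest. LiPS-57 was below LiPS-50 by 1.23-fold (log2 difference -0.30 ± 0.0520, limma adjusted p = 0.00231) and LiPS-47 by 1.17-fold (-0.22, limma adjusted p = 0.0112). Between LiPS-45 and LiPS-50, neighbours in that order, the difference was -0.067 with a 95% interval from -0.18 to 0.046 (limma adjusted p = 0.454). The call against LiPS-47 did not hold when the 2 lines were fitted alone (limma adjusted p = 0.0611).

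Read against the background, 16.5% of probe sets were called between LiPS-45 and LiPS-50, 15.6% between LiPS-57 and LiPS-50 and 15.8% between LiPS-47 and LiPS-50. Of the 8 genes, 2 were called against LiPS-45, 3 against LiPS-57 and 3 against LiPS-47. Higher calls made up 8.3%, 7.48% and 7.31% of probe sets and lower calls 8.18%, 8.16% and 8.48%, in the same order of lines. Arrays did not overlap for 32.7%, 31.6% and 30.7% of probe sets. These comparisons share the LiPS-50 arrays, so they are not independent of each other.

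**Figure D2:**
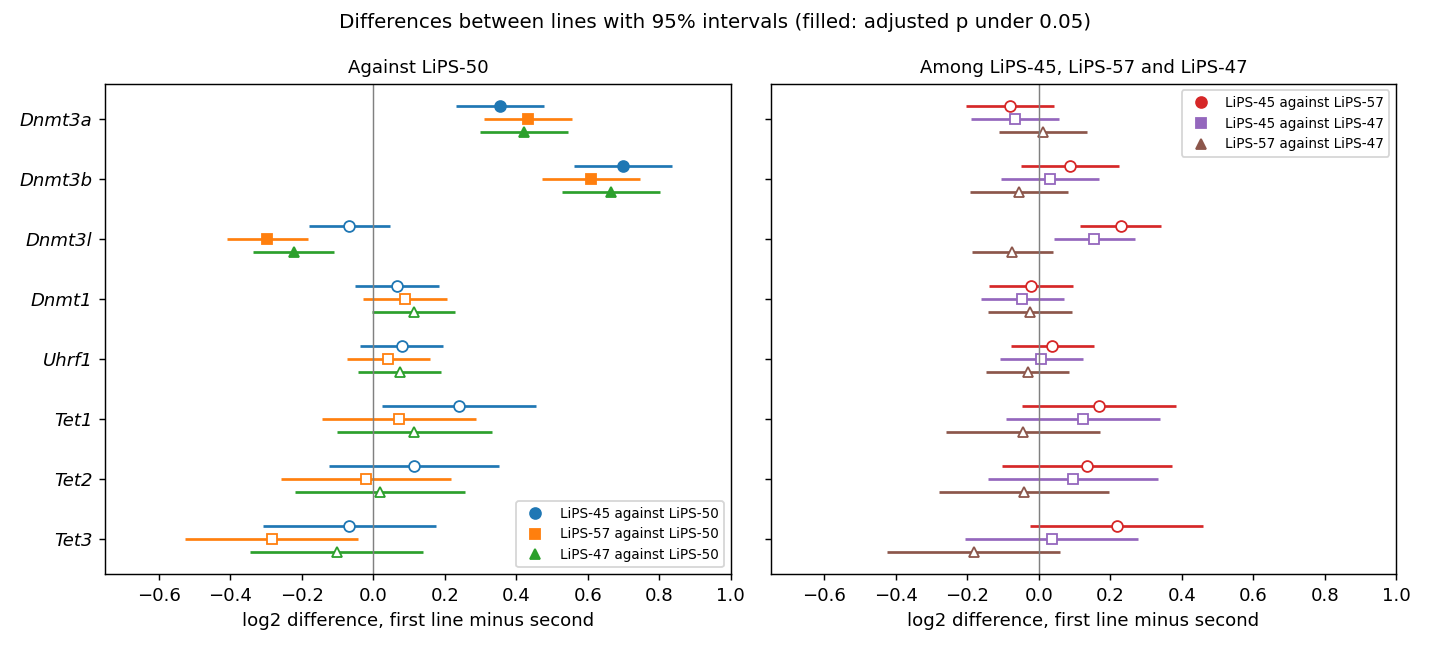
Difference of each gene between lines on the log2(intensity + 1) scale with 95% intervals, against LiPS-50 on the left and among LiPS-45, LiPS-57 and LiPS-47 on the right, filled where called. On the left Dnmt3a and Dnmt3b lie above 0 (0.35 to 0.70) and Dnmt3l below 0 for LiPS-57 (-0.30) and LiPS-47 (-0.22), and no point on the right is filled.

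The maintenance enzyme Dnmt1 read 9.89, 9.87 and 9.91 in LiPS-45, 9.96, 9.89 and 9.88 in LiPS-57, 9.98, 9.89 and 9.93 in LiPS-47 and 9.86, 9.81 and 9.79 in LiPS-50. LiPS-50 was the lowest line without overlap, but by 0.067, 0.088 and 0.11 only, with limma adjusted p of 0.474, 0.343 and 0.203 against LiPS-45, LiPS-57 and LiPS-47. Its partner Uhrf1 read 10.57, 10.46 and 10.49 in LiPS-45, 10.49, 10.49 and 10.43 in LiPS-57, 10.51, 10.50 and 10.49 in LiPS-47 and 10.45, 10.42 and 10.41 in LiPS-50. Those differences were 0.080, 0.043 and 0.074 (limma adjusted p = 0.370, 0.699 and 0.435), and the LiPS-57 arrays overlapped those of LiPS-50.

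Among the dioxygenases, Tet1, the most studied Tet gene of pluripotent cells, read 10.50, 10.37 and 10.46 in LiPS-45, 10.42, 10.14 and 10.26 in LiPS-57, 10.32, 10.25 and 10.39 in LiPS-47 and 10.43, 10.07 and 10.11 in LiPS-50. The lines overlapped, and LiPS-50 held both a high culture and 2 low ones (SD 0.200, n = 3). LiPS-45 exceeded LiPS-50 by 0.24 with a 95% interval from 0.023 to 0.46 (limma adjusted p = 0.131). Without LiPS-50 replicate 1 that difference was 0.35 and was called (limma adjusted p = 0.0209), and with all arrays it was called under a spread that follows intensity (limma adjusted p = 0.0461). LiPS-57 and LiPS-47 exceeded LiPS-50 by 0.072 and 0.12 (limma adjusted p = 0.734 and 0.530).

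Tet2, the other Tet gene of pluripotent cells, read 7.46, 7.29 and 7.42 in LiPS-45, 7.37, 7.11 and 7.28 in LiPS-57, 7.19, 7.27 and 7.43 in LiPS-47 and 7.52, 7.19 and 7.11 in LiPS-50. All 4 lines overlapped, and the differences from LiPS-50 were 0.11, -0.021 and 0.020 (limma adjusted p = 0.560, 0.941 and 0.943). Tet3, known from the oocyte and from differentiated cells, read 6.34, 6.30 and 6.28 in LiPS-45, 6.13, 6.02 and 6.12 in LiPS-57, 6.23, 6.19 and 6.39 in LiPS-47 and 6.56, 6.06 and 6.50 in LiPS-50. LiPS-57 was below LiPS-50 by -0.28 with a limma adjusted p of 0.114. Here LiPS-50 replicate 2 decided the call: without it the difference was -0.44 for LiPS-57 (limma adjusted p = 0.00315) and -0.26 for LiPS-47 (limma adjusted p = 0.0417).

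Genes with several probe sets were read through each. The 3 probe sets of Tet1 had line means from 9.64 to 10.44, all with the lowest mean in LiPS-50, and none was called in any comparison. The second probe set of Tet3 read 6.07, 6.06, 6.09 and 6.00 in LiPS-45, LiPS-57, LiPS-47 and LiPS-50, so its differences from LiPS-50 (0.073, 0.057 and 0.092) had the opposite sign to those of the brighter probe set, and none was called. The direction of Tet3 therefore depended on the probe set. The 4 probe sets shared by Tdg and Tdg-ps2 were each called higher than in LiPS-50 in each of the other lines, by 1.19-fold to 1.25-fold (limma adjusted p from 0.00137 to 0.0120). Signal from the gene and from the pseudogene cannot be told apart there, and the 4 list the same pair, so they are not independent.

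**Figure D3:**
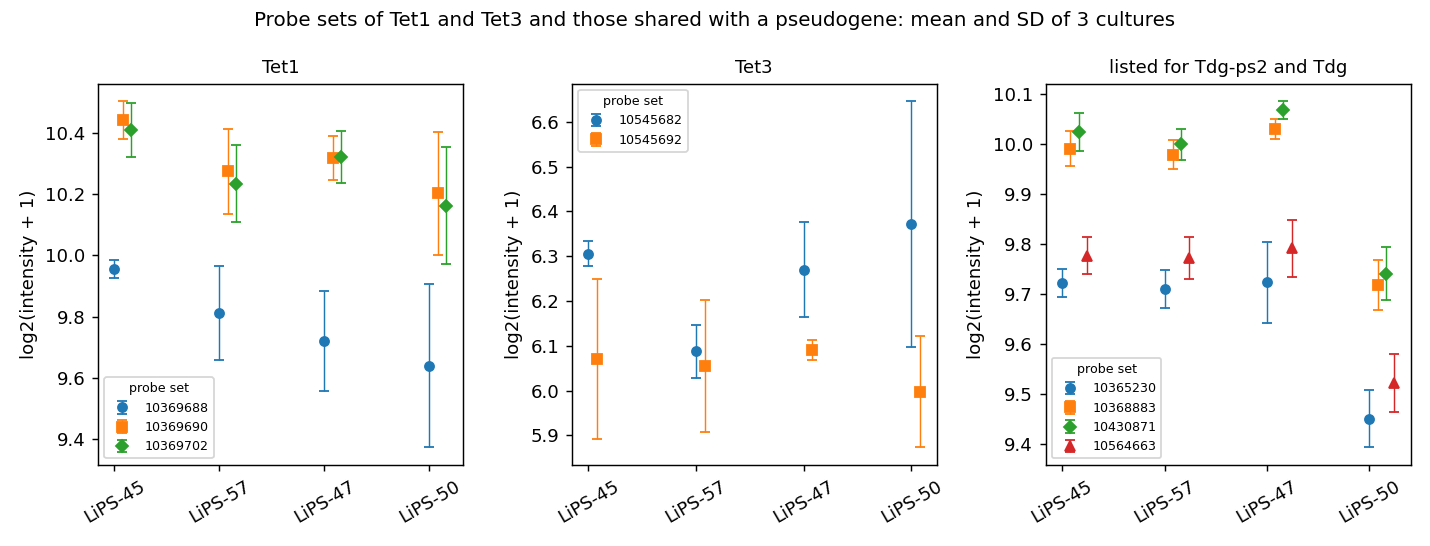
Line means of every probe set that lists a gene of the group with several probe sets, on the log2(intensity + 1) scale, with the SD over 3 cultures. The shared Tdg probe sets are lowest in LiPS-50, and LiPS-50 has the highest line mean in the brighter Tet3 probe set and the lowest in the other, with no difference called in either.

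Among LiPS-45, LiPS-57 and LiPS-47, none of the 8 genes was called in any of the 3 pairs by limma, against 0.266% of probe sets for LiPS-45 and LiPS-57 (0.214% higher and 0.0518% lower in LiPS-45), 0.0622% for LiPS-45 and LiPS-47 (0.0415% higher and 0.0207% lower in LiPS-45) and 0.159% for LiPS-57 and LiPS-47. At an unadjusted p under 0.05 the counts of the 8 were 1, 1 and 0, near the background of 8.01%, 8.93% and 6.89% of probe sets. Dnmt3l was the gene of the first count: LiPS-45 exceeded LiPS-57 by 0.23 ± 0.0520 (1.17-fold, limma adjusted p = 0.178), as 2 lines of the same competence class. It was called with a pseudocount of 16 (limma adjusted p = 0.0298), with dim probe sets left out (limma adjusted p = 0.0477) and with a spread that follows intensity (limma adjusted p = 0.00446). Arrays of LiPS-45 and LiPS-57 did not overlap for 14.3% of probe sets, those of LiPS-45 and LiPS-47 for 13.6% and those of LiPS-57 and LiPS-47 for 11.9%. In Dnmt3b the competent LiPS-45 differed from LiPS-47, which lacks competence, by 0.032 with a 95% interval from -0.10 to 0.17. The competent LiPS-57 differed from it by -0.056, with an interval from -0.19 to 0.081. In Dnmt3a those differences were -0.067 and 0.012. These intervals bound the differences and do not show that the lines are alike.

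The competence comparison was fitted with a random effect for the line. By limma 0 of the 8 genes were called, and 0% of all probe sets, with 1 gene and 7.69% of probe sets at an unadjusted p under 0.05. Dnmt3b was higher in the competent lines by 0.32 ± 0.138 with a 95% interval from 0.026 to 0.62 (limma adjusted p = 0.648). That interval rests on the correlation shared by all probe sets, while Dnmt3b differed mainly between LiPS-50 and the other lines, so it can be too narrow. Dnmt3a was higher by 0.18 with an interval from -0.021 to 0.39 (limma adjusted p = 0.664). The other 6 differed by -0.12 to 0.098. No gene of the 8 separated the classes without overlap, against 0.802% of probe sets. A contrast of the 4 line means with no block called Dnmt3a (0.18, limma adjusted p = 0.0186) and Dnmt3b (0.32, limma adjusted p = 0.00123). Of the marker lists described below, that contrast also called 6 of 11 primed epiblast markers higher, 5 of 21 fibroblast and feeder markers lower and 1 of 12 pluripotency markers higher. The share of all probe sets called in it is not given here, so the 2 genes cannot be set against a background. With LiPS-50 left out of that contrast the differences were -0.027 for Dnmt3a and -0.012 for Dnmt3b, so both rested on that line.

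Lists of other genes that act with these enzymes are read against the share of all probe sets called, which was 7.31% higher and 8.48% lower in LiPS-47, 8.3% and 8.18% in LiPS-45, and 7.48% and 8.16% in LiPS-57, each against LiPS-50. Of 15 cofactors of maintenance and establishment, 4 were higher and 2 lower in LiPS-47 than in LiPS-50. For LiPS-45 the counts were 7 and 1, and for LiPS-57 they were 7 and 2. Their median differences were 0.14, 0.11 and 0.17, against medians of 0.014, -0.00024 and 0.00019 over all probe sets tested. Prdm14, a repressor of Dnmt3b and Dnmt3l in naive cells, was higher in LiPS-50 (6.34 ± 0.208, SD, n = 3) than in LiPS-47 (5.61 ± 0.0977), a difference of -0.73 (limma adjusted p = 0.00116). Against LiPS-45 and LiPS-57 it was -0.69 and -0.61. A relation between Prdm14 and the Dnmt3 genes was not tested. Lower in LiPS-50 were Smchd1, an inactive X silencing protein (LiPS-47 minus LiPS-50, 0.37), Pcna, the replication clamp (0.27), and Cdca7, a partner of the remodeller Hells (0.35), and each was called in all 3 comparisons. The Cdca7 call against LiPS-45 (0.22) had a limma adjusted p of 0.0375 and was lost without any 1 culture of LiPS-45 other than replicate 2, of LiPS-57 or of LiPS-50 (limma adjusted p up to 0.144), with the replicate block (limma adjusted p = 0.0513), with quantile normalization (limma adjusted p = 0.0669) and with the 2 lines alone (limma adjusted p = 0.0705). It was also lost against LiPS-57 without LiPS-50 replicate 1 (limma adjusted p = 0.0517). Setdb1, which places a repressive mark on histone H3, was called too (0.36).

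Of 23 genes of demethylation, base excision repair and deamination, 1 was higher in LiPS-47 than in LiPS-50 and 5 were lower. For LiPS-45 the counts were 1 and 5, and for LiPS-57 they were 2 and 5. The higher calls were near or below the background of 7.31% to 8.3%, and the lower calls above that of 8.16% to 8.48%. Apobec2, a member of the cytidine deaminase family, averaged 7.37 ± 0.0948 in LiPS-50 and 5.87 ± 0.197 in LiPS-47, a 2.83-fold difference (limma adjusted p = 1.70e-06). Idh2, which makes the cofactor of the Tet enzymes, was higher in LiPS-50 by 1.39-fold (limma adjusted p = 9.52e-05). Apex1, the abasic site endonuclease that follows Tdg, was lower in LiPS-50 (0.34 for LiPS-47). Ogt, the X-linked glycosyltransferase that binds Tet proteins, was higher in LiPS-50 (-0.37). Its call against LiPS-45 (-0.22) was lost with each array centred on its median (limma adjusted p = 0.149) and without any 1 culture of LiPS-45 or LiPS-50, LiPS-47 replicate 2 or 3, or LiPS-57 replicate 3. The same call was lost with no probe set left out (limma adjusted p = 0.0591) and with the 2 lines alone (limma adjusted p = 0.0618).

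Methyl-CpG readers were lower than in LiPS-50 for 3 of 6 genes in each of the other lines, namely Zbtb38 (-0.53 for LiPS-47), Zbtb33 (-0.38) and Mbd2 (-0.37), and none was higher. The list's median was -0.32, -0.27 and -0.29 for LiPS-47, LiPS-45 and LiPS-57. Without LiPS-50 replicate 1 or LiPS-50 replicate 3 the count against LiPS-45 fell to 1. The Mbd2 call against LiPS-45 was lost without LiPS-45 replicate 1 or 3 or any 1 of the LiPS-50 cultures (limma adjusted p up to 0.0949) and with each array centred on its median (limma adjusted p = 0.0666). The call against LiPS-47 was lost without LiPS-47 replicate 3 (limma adjusted p = 0.0510). Of 13 genes of methyl donor and one-carbon metabolism, 2 were higher than in LiPS-50 in each of the other lines, and 1 was lower in LiPS-45. Shmt1 and Mthfd2, folate enzymes, were 0.29 and 0.42 higher in LiPS-47. The Mthfd2 call against LiPS-45 was lost without LiPS-45 replicate 1 (limma adjusted p = 0.0610) or LiPS-50 replicate 1 (limma adjusted p = 0.0567), and with the 2 lines alone (limma adjusted p = 0.0595). At 2 of 13 called, the share in LiPS-47 and LiPS-57 was near the 15.8% and 15.6% of all probe sets called.

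**Figure D4:**
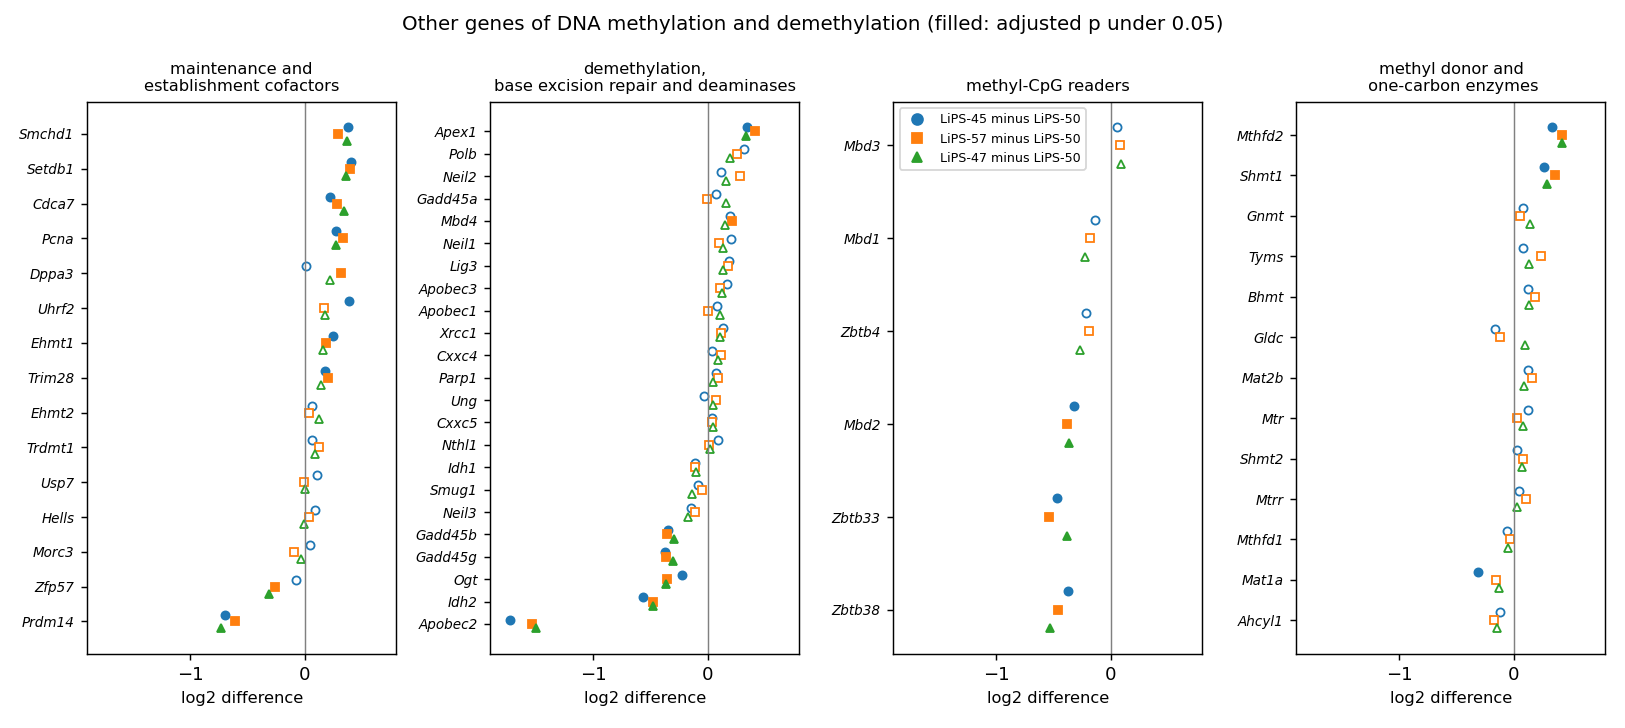
Differences of LiPS-45, LiPS-57 and LiPS-47 from LiPS-50, log2(intensity + 1), for each measured gene of the lists of cofactors, demethylation genes, methyl-CpG readers and methyl donor enzymes, filled where called. Apobec2 lies farthest below 0, at -1.50 to -1.73, and the 3 called readers also lie below 0.

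Germ line genes listed as sensitive to DNA methylation were lower than in LiPS-50 for 8 of 20 genes in LiPS-47. The list was dim, with a mean log2 level of 5.57 to 5.72 in LiPS-50 and 5.31 to 5.44 elsewhere. The 40th percentile of probe set means was 5.21. The count was also 8 for LiPS-45 and was 10 for LiPS-57, and 0 were higher in any of the 3, where 8.16% to 8.48% of all probe sets were lower. Median differences were -0.26, -0.27 and -0.32. Hormad1, a meiotic chromosome protein, was higher in LiPS-50 by 2.81-fold against LiPS-47 (limma adjusted p = 9.87e-07), and Tex19.1 (-0.26) and Sohlh2 (-0.39), both germ cell genes, were called too. The Tex19.1 call was lost without LiPS-47 replicate 3 (limma adjusted p = 0.0568) or LiPS-50 replicate 1 (limma adjusted p = 0.0548), and with the 2 lines alone (limma adjusted p = 0.0634). DNA methylation itself was not measured. Of 22 S phase genes, 8 were higher in LiPS-47 than in LiPS-50. For LiPS-45 that count was 9 and for LiPS-57 it was 12, where 7.31% to 8.3% of all probe sets were higher, with 1 lower in each case, Pola1, an X-linked polymerase subunit (-0.76 for LiPS-47). These counts moved with single cultures. Without any 1 of the 3 LiPS-45 cultures or of the 3 LiPS-50 cultures, the count of S phase genes higher in LiPS-45 was 2 to 5. For LiPS-57 it was 4 to 7 without any 1 of its own or of the LiPS-50 cultures. For LiPS-47 it was 2 to 4 without LiPS-47 replicate 1 or 3 or any 1 of the LiPS-50 cultures, and 1 with the 2 lines fitted alone. The germ line count fell to 4 or 5 for LiPS-45 and to 3 to 5 for LiPS-47 without any 1 of the line's own cultures or LiPS-50 replicate 1 or 3, and to 6 for LiPS-57 without LiPS-50 replicate 3.

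Markers of state and of other cells also differed in LiPS-50. All 12 pluripotency markers were measured, with summed intensities of 22376 to 22946 in LiPS-50 and 22772 to 23865 in the other lines. Of the 12, 3, 5 and 4 were higher than in LiPS-50 in LiPS-47, LiPS-45 and LiPS-57, against 7.31% to 8.3% of all probe sets. In the same order 2, 1 and 1 were lower, against 8.16% to 8.48%. Dropping LiPS-45 replicate 3 or LiPS-50 replicate 3, or fitting only those 2 lines, cut the 5 for LiPS-45 to 2. The 2 lower in LiPS-47 became 0 after median centring, fitting only LiPS-47 and LiPS-50, or dropping LiPS-50 replicate 2 or 3. With an intensity trend the counts rose to 6 higher and 3 lower in both LiPS-47 and LiPS-57. Of 11 primed epiblast markers 8, 8 and 6 were higher than in LiPS-50 in LiPS-47, LiPS-45 and LiPS-57, against 7.31% to 8.3% of all probe sets. Their mean log2 level was 7.12 to 7.14 in LiPS-50 and 7.63 to 7.75 elsewhere. Zic2, a transcription factor of the epiblast, was 1.02 higher in LiPS-47. Of 21 fibroblast and feeder markers measured, 20 were lower than in LiPS-50 in each of the other lines, against 8.16% to 8.48% of all probe sets. Their summed intensity was 29967 to 33454 in LiPS-50, 21898 to 25636 in LiPS-45, 22024 to 23594 in LiPS-57 and 18802 to 23132 in LiPS-47, and none was at 0. The part of fibroblasts and of the epiblast-like markers in the result for Dnmt3a and Dnmt3b was not tested.

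Genes of the sex chromosomes differed too. Xist, the RNA that silences an X chromosome, averaged 6.64, 6.46 and 6.22 in LiPS-45, LiPS-57 and LiPS-47 and 8.31 in LiPS-50, and was called in each comparison with LiPS-50. Uty, on the Y chromosome, averaged 7.86, 6.62, 7.76 and 5.25 in the same order. LiPS-57 thus also differed in Uty, with LiPS-45 higher by 1.23 (limma adjusted p = 9.63e-04) and LiPS-57 minus LiPS-47 at -1.14 (limma adjusted p = 0.00372). LiPS-45 exceeded LiPS-57 by 1.69 and LiPS-47 by 1.00 in Eif2s3y, also on the Y chromosome, both called. This gene was chosen after its values were seen. Its call against LiPS-47 did not hold if either LiPS-45 replicate 2 or 3, or LiPS-47 replicate 2, was dropped. A fit of only LiPS-45 and LiPS-47 lost it as well. Over 413 X-linked genes the median difference from LiPS-50, relative to 12507 autosomal genes, was -0.40 for LiPS-47, -0.34 for LiPS-45 and -0.38 for LiPS-57. All 9 genes of the group are autosomal. Ogt, Zbtb33 and Pola1 are X-linked, and the part of the X chromosome in their values was not tested. These sex chromosome differences of LiPS-50 came together with its lower Dnmt3a and Dnmt3b. Their part in the levels of those autosomal genes was not tested either.

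Profiles over the 12 arrays were compared with those of 12952 genes above the dim filter. Dnmt3b was most like Ivns1abp (Pearson r = 0.991), Zic5 (0.988) and Trh (0.986). Dnmt3a was most like Fbxl19 (0.984), Dab1 (0.983) and Mthfd1l (0.982). Dnmt3l was most like Zfp809 (0.927), Malat1 (0.925) and Pde8b (0.924), and Tet1 was most like Prrc2c (0.982), Ankhd1 (0.954) and Mdn1 (0.945). These are descriptions over 12 arrays that fall into 4 lines, and those of Dnmt3b and Dnmt3a carry the gap between LiPS-50 and the rest. Ivns1abp averaged 10.21, 10.12 and 10.10 in LiPS-45, LiPS-57 and LiPS-47 and 9.05 in LiPS-50. Malat1, alike to Dnmt3l, had no such gap, averaging 11.67, 11.32 and 11.38 in those lines and 11.73 in LiPS-50. The nearest profiles of the other genes were Clstn3 for Dnmt1 (0.961), Birc6 for Tet2 (0.925), Rnf39 for Uhrf1 (0.903) and Dock4 for Tet3 (0.876).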

How the data were processed

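RNA from 12 cultures of 4 mouse iPS lines was extracted with Trizol, amplified as whole-transcript cDNA and labelled with biotin, per the labels' protocols. Each deposited value is the linear intensity of a probe set on an array, and the values run from 3.06 to 16531. The submitters' processing notes name GCOS 1.4, while how probes were summarised, background-corrected and normalized is not given in the sources used here. Between arrays the quartiles on the log2 scale varied by 0.0954 or less, so the scale was kept. The values were turned into log2(value + 1), which understates changes of dim genes.

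Of 35556 probe sets, 6617 numbered below the lowest annotated identifier were left out, and 28939 were tested. Of these 21789 list 1 gene, 1621 several and 5529 none, and a gene is read through its brightest probe set. Symbols came from a RefSeq table of GRCm38.p6, which matched 19856 of 19938 genes. Arrays of a line correlated at 0.996 to 0.997, and no pair shared over 0.608% of identical values.

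Line means were fitted with limma 3.58.1 in R 4.3.3 over all 12 arrays (8 residual and 4.06 prior degrees of freedom). Competence was fitted with line as a random block (duplicateCorrelation, 0.183). Tests are two-sided, with Benjamini-Hochberg adjustment over the probe sets tested, and the fits were tested on simulated data. A probe set not called here was not shown to be equal.

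The 9 genes and all lists were chosen with earlier results of these data known. By rule the text names the 9 genes, up to 4 genes of every other list with the smallest p in LiPS-47 against LiPS-50, up to 4 in the competence test, and the 3 most alike in profile. Named genes were followed through replicate block, centring, quantile normalization, pseudocount 16, a 40th percentile filter, intensity trend, all probe sets, probe set means, 2 lines alone and single cultures left out.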

Additional observations from a re-analysis of the deposited data

How the results depend on the processing

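Over all alternatives and left-out cultures, 1174 values of the 8 genes kept their side of the threshold, 1 fell below it and 9 passed it newly. No called value changed sign, whereas uncalled ones did, as with LiPS-50 left out of the competence contrast. Dnmt3a and Dnmt3b were called against LiPS-50 in all 3 comparisons under every alternative run, with Dnmt3b between 0.58 and 0.75 and Dnmt3a between 0.33 and 0.48. The competence count rose from 0 to 2 in the contrast of 4 line means with no line block, which drops the spread between lines. That contrast newly called genes of the other lists too. The count for LiPS-45 against LiPS-57 rose from 0 to 1, Dnmt3l, with log2(value + 16), with the 40th percentile filter and with an intensity trend; the cause was not tested. With single cultures left out, the counts against LiPS-50 were 2 to 3 for LiPS-45, 3 to 4 for LiPS-57 and 3 to 4 for LiPS-47, and the other counts stayed at 0. Replicate numbers did not pair the cultures: same-numbered arrays of different lines correlated from -0.28 to 0.19 in their deviations, over 0.1 in 6 of 18 pairs, and 5 of 12 arrays correlated best with their own number. The replicate block gave the counts 0, 0, 0, 2, 3, 3 and 0, equal to those without it. In the other lists, the cofactor count higher in LiPS-47 rose from 4 to 8 with an intensity trend, with the filter and with log2(value + 16), and demethylation genes higher in LiPS-45 from 1 to 5 with the filter. Methyl donor genes higher in LiPS-57 went from 2 to as many as 4 with an intensity trend. S phase genes higher in LiPS-47 were 13 or 14 under the trend, the filter and the larger pseudocount. Germ line genes lower in LiPS-45 and LiPS-47 were 4 and 5 after quantile normalization. Differences near 0.1 in the Tet genes were within the spread of 3 cultures.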
